A study of Homo sapiens with 12 samples.

Results

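RNA-seq libraries of hTERT-RPE1 cells, 8 in all, were compared by replicate number: the 4 libraries numbered 2 against the 4 libraries numbered 3, paired by the siRNA the cells had received. hTERT-RPE1 is a human retinal pigment epithelial line made to grow without limit by telomerase, described in the labels as parental and wild type. One library of each number came from cells given the negative control siRNA (siNeg), one from cells given an siRNA against CENPF (siCENPF), one from cells given an siRNA against FOXM1 (siFOXM1) and one from cells given both (siCENPF+siFOXM1). The siRNA was applied overnight at 20 nM, and cells were collected 48 hours after treatment. These are 8 of the study's 12 libraries, all of polyA RNA, and 14834 of the 14862 genes in the authors' table of normalized counts passed the filter on low values. The labels do not say whether a replicate number stands for a culture, a passage, a day or a preparation. The p-values below thus measure the spread between these samples, which may be technical. For the difference between numbers, that is how evenly it held over the 4 siRNA pairs, not how far replicate series differ in general.

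The study asked how transcription responds to loss of CENPF and FOXM1, and libraries that differ in number and not in siRNA show how far the libraries differed apart from that. CENPF is a kinetochore and centromere protein, and FOXM1 is a transcription factor that drives genes of the G2 and M phases of the cell cycle. RNA levels in cultured cells also move with how many cells are in each cycle phase and with density, nutrients and serum. Cells short of amino acids or under oxidative load induce transporters and antioxidant enzymes through ATF4 and NRF2. Sterol supply sets the SREBP genes, stretch and open space raise YAP/TAZ targets, and damage or crowding can raise targets of p53.

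Normalized counts are the authors' scaled read counts, by a scaling that no source used here describes, and 1 was added before taking log2. A gene's level is given below as its normalized count in the 4 libraries of a number, in the order siNeg, siCENPF, siFOXM1 and siCENPF+siFOXM1, and pair differences on the log2 scale follow the same order. A log2 difference is the limma estimate of number 3 minus number 2 over the 4 pairs ± its standard error (SE), and a gene passed the test when its Benjamini-Hochberg adjusted p over all genes was under 0.05. Adding 1 shrinks the fold change of weakly expressed genes.

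Number 2 libraries held 13681255, 14097515, 13907867 and 15801838 reads in genes, and number 3 libraries held 35411230, 31302177, 17968360 and 17018969. Number 3 was thus deeper in 4 of 4 pairs, by 2.59-fold, 2.22-fold, 1.29-fold and 1.08-fold, so depth went with number (exact sign-flip test, p = 0.125, the smallest that 4 pairs allow). The share of reads in mitochondrially encoded genes was 2.25% to 2.42% with number 2 and 2.05% to 2.46% with number 3. CENPF stood at 8.67% and 12.7% of the matched siNeg level in siCENPF cells of numbers 2 and 3, and at 14.3% and 16.1% with both siRNAs. FOXM1 stood at 11.1% and 17.1% in siFOXM1 cells, and at 18.4% and 17.3% with both siRNAs, so the targeted genes went with their labels. Of 6 markers of simple epithelium and mesenchymal cells, 5 were above 1 FPKM, led by VIM. Among 14 markers of differentiated retinal pigment epithelium, 2 (BEST1 and MITF) reached 1 FPKM, and RPE65, TYR and DCT were at 0 in all 8 libraries. BEST1 shares exon bases with FTH1 on the other strand. Neural markers summed to at most 3.42 FPKM in a library, keratinocyte markers to at most 2.73 FPKM, and blood and endothelial markers to at most 0.717 FPKM.

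Replicate number, with 1 degree of freedom, took about as large a share of the variance as the siRNA group did with 3. Over all genes, replicate number took 37.5% of the variance of the log2 values with 1 degree of freedom, the siRNA group 36.1% with 3, and the remainder 26.3% with 3. The first principal component, 39.3% of the variance, ran from -24.7 to -14.1 in number 2 and from 12.6 to 29.4 in number 3. Cells given the FOXM1 siRNA lay above those without it on the second component, which held 15.2%.

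**Figure D1:**
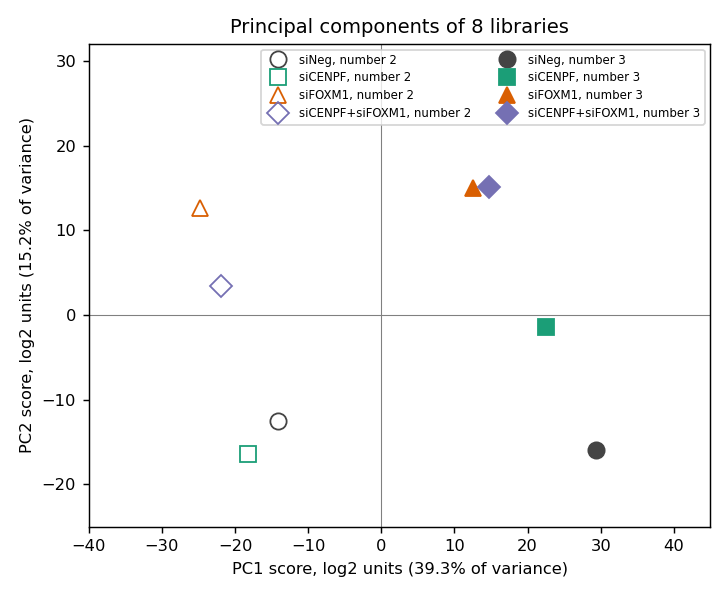
Scores of the 8 libraries on the first 2 principal components of log2(normalized count + 1), with open symbols for number 2 and filled symbols for number 3. All 4 libraries numbered 2 lie left of 0 on the first component and all 4 numbered 3 lie right of it, and the libraries with the FOXM1 siRNA lie in the upper part.

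Between numbers, 4727 of 14834 genes passed the test, which is 31.9%. Of these, 2409 (16.2%) were higher in number 3 and 2318 (15.6%) were lower. Among the genes that passed, 4466 differed in the same direction in all 4 pairs, as did 45.7% of all genes. Groups did not overlap for 1819 genes that were higher in each number 3 library (12.3%) and for 1785 that were lower (12%). Most differences were small: 3925 of the genes that passed were within 1.5-fold, while 61 were at least 2-fold higher and 150 at least 2-fold lower in number 3. With 2 pairs alone, 3826 genes passed in the siFOXM1 and siCENPF+siFOXM1 pairs, which were closest in depth, and 1774 in the siNeg and siCENPF pairs. In the former 13.4% of all genes were higher and 12.4% lower, and in the latter 5.8% and 6.15%. Reads thinned to 13681255 in every library gave 4482 genes, 2015 higher and 2467 lower.

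SLC14A1, a urea transporter gene (chr18:45724127-45752520, hg38), was the most different of the named genes. It stood at 1031, 958, 1083 and 1072 with number 2 and at 123, 155, 175 and 220.1 with number 3, which is 6.25-fold lower in number 3 with no overlap (log2 -2.64 ± 0.10, adjusted p = 7.13e-11). The libraries numbered 1 held 93.2 to 289, a range that takes in that of number 3. CLSTN2, a calsyntenin (chr3:139935185-140577397), stood at 1192, 1150.2, 1045 and 1064 with number 2 and at 318, 423, 306 and 459 with number 3, a difference of -1.58 ± 0.09. LRRC17, a gene for a secreted leucine-rich repeat protein, stood at 1322, 1604, 1677 and 1676 with number 2 and at 522, 636, 684 and 719.6 with number 3. Its 4 pair differences, -1.34, -1.33, -1.29 and -1.22, were close together. RGS5, a regulator of G protein signalling used as a pericyte marker, was at 431, 407, 428 and 459 with number 2 and at 143, 150.4, 147 and 146 with number 3. For these 4 genes every number 2 library lay well above every number 3 library. BMF, a BH3-only gene of the BCL2 family, was at 2109.8, 1713, 1768 and 1748 with number 2 and at 476, 758, 651 and 702 with number 3, 2.87-fold lower (log2 -1.52 ± 0.13). DDIT4, an inhibitor of mTORC1 that hypoxia and stress induce, was at 956, 899.7, 923 and 855 with number 2 and at 278, 339, 362 and 372 with number 3. It shares 847 exon bases (41.2%) with DDIT4-AS1 on the other strand, and LRRC17 shares 317 with FBXL13. BMF and DDIT4 likewise did not overlap. The other genes at least as far down included COL11A1 (log2 -1.78), a fibrillar collagen, PTCHD4 (-1.76), a patched-domain gene that p53 can induce, and HES1 (-1.59), a Notch target. PIK3IP1 (-1.49), an inhibitor of PI3 kinase, ITGA10 (-1.45), an integrin, and SOD3 (-1.35), an extracellular superoxide dismutase, were in the same set. The 20 named genes that were lower spanned log2 -2.64 to -1.27, the last being GBP2, a guanylate-binding protein.

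SLC7A11, the cystine importer that supplies glutathione synthesis (chr4:138164097-138242349, hg38), had the largest positive difference of the 20 higher genes named for their size, which had a mean of at least 100 normalized counts. It stood at 576, 541, 500.3 and 528 with number 2 and at 1411, 1969, 1724 and 1761 with number 3, 3.18-fold higher in number 3 with no overlap (log2 1.67 ± 0.08, adjusted p = 6.19e-10). Number 1 libraries were at 2059 to 3954, above all of number 3. SLC7A11-AS1 shares 865 exon bases with SLC7A11 on the other strand, and no source used here says whether reads were counted by strand, so its log2 difference of 1.63 cannot be told apart from that of SLC7A11. ATF3, a stress-induced transcription factor, was at 67.1, 64, 50.6 and 55.5 with number 2 and at 183, 209, 160.5 and 196 with number 3 (3.12-fold higher). ESM1, a proteoglycan gene, was at 101, 133, 101 and 108 with number 2 and at 449, 375, 259 and 321 with number 3. In both genes the number 3 libraries lay above all number 2 libraries. CD274, which encodes PD-L1, was at 358, 352, 319.7 and 362 with number 2 and at 1098, 975, 739 and 852 with number 3. DUSP5, a nuclear phosphatase that ERK signalling induces, was at 1142, 1039, 1223 and 1191 with number 2 and at 2497, 2308, 2845 and 2685 with number 3, and its pair differences of 1.13, 1.15, 1.22 and 1.17 were nearly equal. SERPINB2, an inhibitor of plasminogen activators, was at 1073, 1546, 1818 and 2044 with number 2 and at 2482, 3140.5, 4457 and 4120.0 with number 3. The last 3 genes did not overlap between the numbers either. HAS2, a hyaluronan synthase (log2 1.42), TNFAIP3, a brake on NF-kB signalling (1.33), and IL8, the neutrophil chemokine CXCL8 (1.15), were also among the 20 named genes that were higher. So were AREG (1.14), an EGF receptor ligand, and SPP1 (1.15), which encodes osteopontin. The smallest difference in that set was 1.05, in FAM196B.

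**Figure D2:**
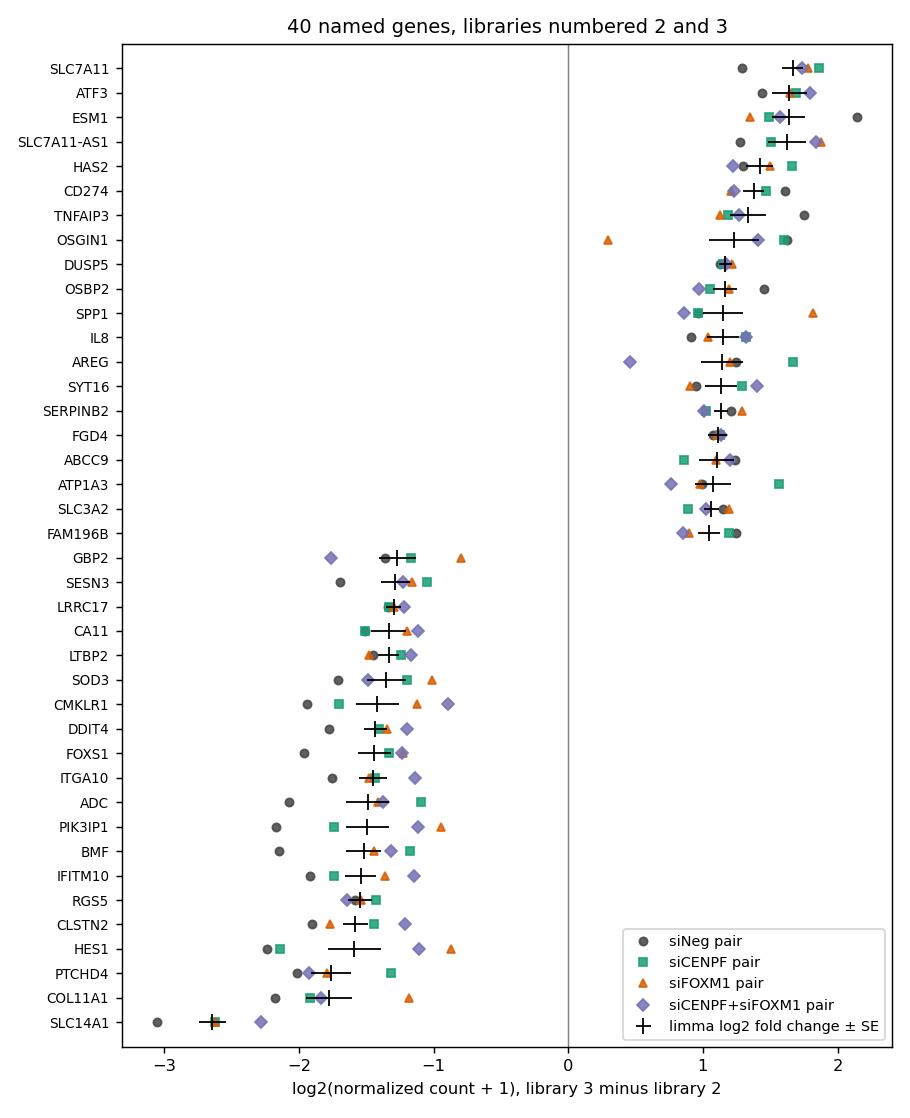
Log2 difference of number 3 minus number 2 for the 20 named genes that were higher and the 20 that were lower, with 1 symbol per siRNA pair and a vertical tick for the limma estimate with its SE as a horizontal line. Every pair difference plotted lies on the same side of 0 as its estimate, and SLC14A1 stands farthest from 0 at -2.64.

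Genes of DNA replication were higher in number 3 and many genes of G2 and M were lower. S phase genes, a list of 49 that includes the MCM helicase, origin licensing, polymerase and nucleotide genes, had 37 members that passed as higher and 1 (RPA3) that passed as lower, with a median log2 difference of 0.26 against 0.00 over all genes. All genes together had 16.2% higher and 15.6% lower. CDC6, which loads the MCM helicase onto origins (chr17:40287633-40304657), was at 1211, 1079, 1059 and 1083 with number 2 and at 2133, 1791, 1659 and 1615 with number 3, 1.62-fold higher (log2 0.69 ± 0.06, adjusted p = 1.17e-07). CCNE2, the E2 cyclin that acts with CDK2 at the start of S phase, was at 601, 475, 469 and 471 with number 2 and at 1058, 784, 753 and 728 with number 3. It shares 1629 exon bases with INTS8 on the other strand. MCM10, a replication initiation factor, was at 582, 459, 490.2 and 489 with number 2 and at 1008, 741, 784 and 736 with number 3. DTL, a substrate receptor of the CRL4 ubiquitin ligase that acts on CDT1, was at 1351, 1076, 1118 and 1046 with number 2 and at 1868, 1601, 1546 and 1464 with number 3. In each of these 4 genes the lowest number 3 library was above the highest number 2 library, and the siNeg library was the highest of its number. CDT1 (0.55), EXO1 (0.56), E2F1 (0.47) and MCM6 (0.42) also passed, while PCNA (0.00, adjusted p = 0.966) did not. In bulk RNA, fewer cells in a phase and less RNA per cell cannot be told apart. In the 2 pairs closest in depth, 32 of the 49 passed as higher, and in the siNeg and siCENPF pairs 20 did, against 13.4% and 5.8% of all genes.

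The promoters of S phase genes are shown because so many of these genes were higher together. E2F factors bind near the start of many such genes, and the word TTTNGCGC, searched on both strands, is a core form of their site. RefSeq promoters of build GRCh38.p14, from 250 bases before to 50 bases after each gene's start, matched 10523 of the 14834 genes. The word was in 15 of 40 S phase promoters (37.5%) and in 325 of all 10523 (3.09%). Of the 30 S phase genes with a promoter that were higher, 14 held it, and such a match is a description of letters, not of binding. The promoters of 3 of them follow, 5′ to 3′ on the gene's strand, with the matched words in capitals: CDC6 (chr17:40287629-40287928, plus strand), DTL (chr1:212035498-212035797, plus strand) and MCM6 (chr2:135876394-135876693, minus strand). The MCM6 stretch holds 2 pairs of overlapping matches on opposite strands.
CDC6: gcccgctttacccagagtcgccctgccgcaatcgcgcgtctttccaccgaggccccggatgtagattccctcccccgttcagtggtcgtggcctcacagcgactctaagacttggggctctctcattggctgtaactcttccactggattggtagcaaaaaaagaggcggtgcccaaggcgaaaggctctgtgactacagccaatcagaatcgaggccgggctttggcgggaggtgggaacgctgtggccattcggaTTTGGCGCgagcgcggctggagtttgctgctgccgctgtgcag
DTL: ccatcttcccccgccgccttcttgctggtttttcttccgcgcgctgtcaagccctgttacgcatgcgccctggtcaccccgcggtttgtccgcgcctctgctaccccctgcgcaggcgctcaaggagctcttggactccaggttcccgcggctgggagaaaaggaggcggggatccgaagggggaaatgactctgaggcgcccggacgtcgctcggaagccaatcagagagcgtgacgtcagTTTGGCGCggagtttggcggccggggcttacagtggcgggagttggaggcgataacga
MCM6: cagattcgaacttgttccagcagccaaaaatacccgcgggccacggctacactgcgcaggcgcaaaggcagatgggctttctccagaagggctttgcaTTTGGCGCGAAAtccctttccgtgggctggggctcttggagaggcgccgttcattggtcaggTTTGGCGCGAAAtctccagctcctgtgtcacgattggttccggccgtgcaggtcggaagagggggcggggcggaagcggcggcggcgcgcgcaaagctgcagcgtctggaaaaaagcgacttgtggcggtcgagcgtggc

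G2/M genes, 50 members of the mitotic programme, had 21 that passed as lower and 1, MKI67, that passed as higher (log2 0.29), with a median of -0.11. The shares of all genes were 15.6% lower and 16.2% higher. The number lower was 23 in the 2 pairs closest in depth, 26 after thinning and 4 in the siNeg and siCENPF pairs. Over all genes, 12.4%, 17% and 6.15% were lower in these settings. In the siNeg and siCENPF pairs the list, with 4 of 50, thus lay near the share of all genes. TOP2A, the topoisomerase that untangles sister chromatids, was at 15714, 13383, 17734 and 16467 with number 2 and at 11712, 10582, 13055 and 12696 with number 3, and the numbers did not overlap (1.31-fold lower, log2 -0.39 ± 0.04, adjusted p = 2.53e-06). HMMR, a spindle assembly factor, was at 3228, 2722, 3236 and 3248 with number 2 and at 2740.3, 2039, 2662 and 2582 with number 3, with the siNeg library of number 3 above the siCENPF library of number 2. NDC80 (-0.33 ± 0.05), an outer kinetochore subunit, and CKS2 (-0.37 ± 0.06), a CDK subunit, were lower in all 4 pairs. CENPF itself did not pass (0.00 ± 0.07, adjusted p = 0.979), and FOXM1 did (0.29 ± 0.09, adjusted p = 0.0164), with pair differences of 0.10, 0.33, 0.73 and 0.01. FOXM1 missed the threshold without the siFOXM1 pair (0.15, adjusted p = 0.158 by limma) and in 5 of the other 16 alternatives, with adjusted p from 0.00034 to 0.876 over all 17. PLK1 (0.12, adjusted p = 0.0559) and AURKA (-0.11, adjusted p = 0.0758) did not pass. Of 8 measured cluster histone genes, whose mRNAs mostly lack a polyA tail, 4 passed as lower and 0 as higher. HIST1H2AC was at 293, 239, 166 and 218 with number 2 and at 90, 136, 133 and 117 with number 3, with no overlap. Near-identical histone copies can share reads, so these values are uncertain.

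Targets of p53 were lower in number 3: 17 of 22 passed as lower, 0 as higher, and the median was -0.35. For all genes, 15.6% passed as lower and 16.2% as higher. CDKN1A, the p21 inhibitor of cyclin-dependent kinases (chr6:36676460-36687339), was at 7034, 6997, 8250.0 and 7474 with number 2 and at 4328, 4126, 5064 and 4902 with number 3, 1.62-fold lower (log2 -0.69 ± 0.04, adjusted p = 9.21e-09). The libraries numbered 1 were at 7425 to 7572, within the range of number 2. TP53INP1, which acts in autophagy and cell death, was at 822, 564, 558 and 679 with number 2 and at 302, 283, 283 and 320.5 with number 3. CCNG1, which encodes cyclin G1, was at 3330.1, 3706, 3347 and 3618 with number 2 and at 2147, 2364, 2284 and 2372 with number 3, and RRM2B, the p53-induced subunit of ribonucleotide reductase, at 1459.5, 1486, 1326 and 1556 with number 2 and at 906, 838, 856 and 949.8 with number 3. The numbers overlapped for none of these 4 genes, and 17 members of the list did not overlap. Among all genes, 12% were lower in number 3 without overlap and 12.3% higher. The pro-apoptotic BBC3 (-1.10) and the nucleotide excision repair gene DDB2 (-0.59) passed too, whereas MDM2 (-0.13, adjusted p = 0.102) did not. The count of members lower was 17 in the 2 pairs closest in depth, 17 after thinning and 11 in the siNeg and siCENPF pairs, where 12.4%, 17% and 6.15% of all genes were lower.

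Amino acid transport and stress-response genes were higher in number 3. Of 24 genes of the integrated stress response, the programme that ATF4 drives when eIF2 alpha is phosphorylated, 16 passed as higher and 0 as lower, with a median of 0.34. Among all genes, 16.2% passed as higher and 15.6% as lower. SLC3A2, the heavy chain that pairs with SLC7A11 and SLC7A5 at the membrane, was at 1367, 1908, 1212 and 1539 with number 2 and at 3029, 3539, 2771 and 3134 with number 3 (log2 1.06 ± 0.05, adjusted p = 1.43e-09). SLC7A5, the leucine transporter LAT1, was at 2102, 3337, 1944 and 2657 with number 2 and at 3575, 6157, 4487 and 5393 with number 3. In that gene the siCENPF library was the highest of each number, and the siNeg and siFOXM1 libraries were the lowest. GARS, the glycyl-tRNA synthetase, was at 2581, 2266, 2482 and 2367 with number 2 and at 3504, 3213, 3447 and 3415 with number 3, without overlap. ASNS (0.55), the asparagine synthetase, DDIT3 (0.58), which encodes CHOP, and TRIB3 (0.51) passed, while ATF4 itself did not (-0.01, adjusted p = 0.945). The ASNS promoter is shown because it holds a match to TGATGNAA, a core of the ATF4 and C/EBP composite site, which was found in 4 of 21 promoters of the list (19%) and in 1.71% of all promoters (chr7:97872359-97872658, minus strand). Of the 14 members with a promoter that were higher, 2 hold the word.
ASNS: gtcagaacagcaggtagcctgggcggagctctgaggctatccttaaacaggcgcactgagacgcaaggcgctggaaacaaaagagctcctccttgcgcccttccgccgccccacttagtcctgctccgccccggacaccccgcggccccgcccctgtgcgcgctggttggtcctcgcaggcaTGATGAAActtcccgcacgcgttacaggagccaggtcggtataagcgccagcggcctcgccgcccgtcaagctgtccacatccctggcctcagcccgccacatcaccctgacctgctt

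In the unfolded protein response list, 5 of 15 passed as higher and 1 (HSP90B1, -0.11) as lower, with a median of 0.13. Over all genes 16.2% were higher and 15.6% lower. HSPA5, the chaperone BiP, was at 14350.5, 18085, 15201 and 16177 with number 2 and at 20177, 22294, 20442 and 21162 with number 3, with no overlap. HERPUD1 (0.37 ± 0.07), MANF (0.29 ± 0.06) and XBP1 (0.22 ± 0.06) were the other named members. Heat shock genes had 9 of 17 higher and 0 lower, with a median of 0.17, and 9 were higher in the 2 pairs closest in depth but 0 in the siNeg and siCENPF pairs. HSP90AB1, a cytosolic HSP90, was at 26966, 24575, 24385 and 22881 with number 2 and at 34001, 28820.0, 30939.9 and 28662 with number 3 (log2 0.31 ± 0.04, adjusted p = 2.84e-05). FKBP4, HSPD1 and STIP1 differed by 0.32, 0.28 and 0.23, and HSP90AA1 did not pass (0.00, adjusted p = 0.971).

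Antioxidant genes that NRF2 controls showed 11 of 15 members higher and 1 (TKT, -0.16) lower, with a median of 0.43, against 16.2% and 15.6% of all genes. TXNRD1, thioredoxin reductase, was at 12888, 12365, 10877 and 11836 with number 2 and at 20198, 19879.8, 18351 and 19148 with number 3 (1.62-fold higher, log2 0.70 ± 0.04, adjusted p = 4.35e-09), and its groups did not overlap. NQO1, a quinone reductase that shares 575 exon bases with AC092115.2 on the other strand, was at 5302, 6155, 4662 and 5557 with number 2 and at 7622, 8201, 7110.3 and 7692 with number 3. FTL and FTH1, the ferritin chains that store iron, differed by 0.58 ± 0.04 and 0.45 ± 0.04. FTH1 shares 1267 exon bases with BEST1 on the other strand, and ferritin pseudogenes can take reads, so the 2 ferritin values are uncertain. HMOX1 (0.40) and GCLM (0.46) also passed, whereas GCLC (0.00, adjusted p = 1.00) did not. The TXNRD1 promoter is shown for its 2 matches to TGACNNNGC, the core of the antioxidant response element, a word found in 4 of 12 promoters of this list (33.3%) and in 15.1% of all promoters (chr12:104215529-104215828, plus strand). Of the 9 members with a promoter that were higher, 3 hold it.
TXNRD1: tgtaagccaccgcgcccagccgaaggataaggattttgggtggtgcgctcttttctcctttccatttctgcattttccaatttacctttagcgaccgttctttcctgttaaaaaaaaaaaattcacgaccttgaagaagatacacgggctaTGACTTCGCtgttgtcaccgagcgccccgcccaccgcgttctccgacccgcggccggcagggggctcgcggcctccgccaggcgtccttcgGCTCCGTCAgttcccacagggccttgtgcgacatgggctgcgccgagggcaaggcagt

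**Figure D3:**
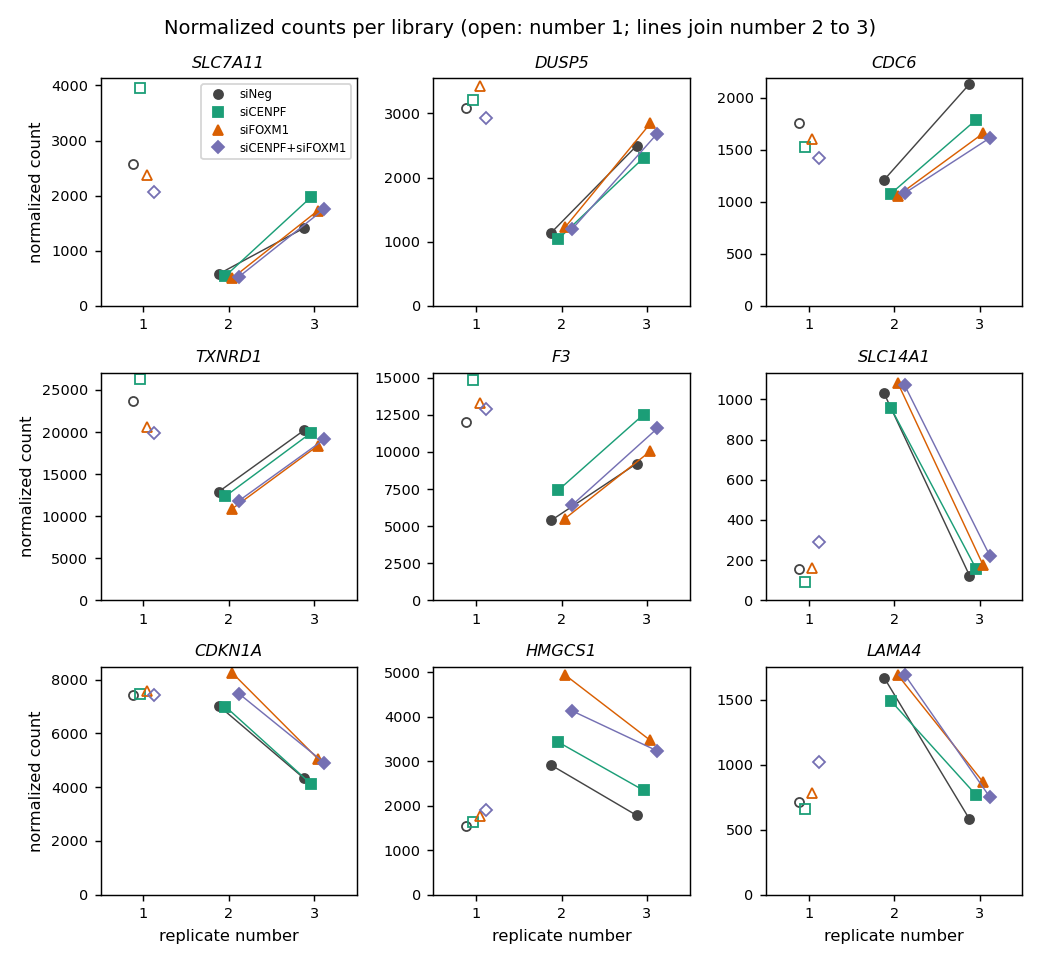
Normalized counts of 9 genes in each of 12 libraries, by replicate number on the horizontal axis and siRNA by symbol. Lines join numbers 2 and 3 of a siRNA, open symbols are number 1, and the 5 genes from SLC7A11 to F3 are higher in number 3 in each pair while the 4 from SLC14A1 to LAMA4 are lower.

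More growth-signal genes were higher than lower in number 3. The immediate early and ERK list, genes that serum and MAP kinases switch on within minutes, had 14 of 26 members higher and 1 (JUND, -0.32) lower, with a median of 0.29. Of all genes, 16.2% were higher and 15.6% lower. DUSP1, a phosphatase that turns MAP kinases off, was at 1006, 1208, 949 and 1067 with number 2 and at 1774, 1755, 1641 and 1836 with number 3, with no overlap (log2 0.73 ± 0.06, adjusted p = 1.09e-07). SPRY4, a feedback inhibitor of receptor tyrosine kinases, was at 277, 231, 279 and 306 with number 2 and at 518, 443, 525 and 523 with number 3, also apart. FOS (1.99 ± 0.31, adjusted p = 0.000129) and EGR1 (1.29 ± 0.22, adjusted p = 0.000301) passed, the former with 7.15 to 10.2 normalized counts in number 2 and 23.9 to 43.6 in number 3. FOS met the filter of 10 normalized counts in every number 3 library, where it was high, and lay near it in number 2. The size of its difference is therefore uncertain. MYC (0.04, adjusted p = 0.633) and DUSP6 (0.06, adjusted p = 0.528) did not pass.

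YAP/TAZ targets, which respond to stretch and cell spreading, had 14 of 24 higher and 0 lower, with a median of 0.24. F3, the tissue factor gene (chr1:94529225-94541800), was at 5391, 7411, 5507 and 6397 with number 2 and at 9217, 12522, 10049 and 11581 with number 3 (1.76-fold higher, log2 0.81 ± 0.04, adjusted p = 1.76e-09). CTGF, a matricellular protein gene now named CCN2, was at 8647, 13207, 8896 and 10158 with number 2 and at 14129, 17715, 12985 and 13816 with number 3. Its siCENPF library was the highest of each number, so the numbers overlapped although each pair was higher in number 3. CRIM1, a BMP-binding membrane protein gene, was at 13773, 13338, 15944 and 14239.7 with number 2 and at 18322, 19326, 21129 and 21899.7 with number 3, and ANKRD1, a cardiac ankyrin repeat gene, at 8447, 11012, 6075 and 8290.1 with number 2 and at 15006, 14861, 9019.8 and 10833 with number 3. CYR61 (0.10, adjusted p = 0.0772) did not pass. Actin and SRF genes were split: 4 of 14 higher (28.6%), 3 lower (21.4%), median 0.05, against 16.2% and 15.6% of all genes. ACTB was at 95888, 100846, 87372 and 87679 with number 2 and at 133498, 133593, 117000.0 and 124364 with number 3 and ACTG1, the other cytoplasmic actin, was higher by 0.40 ± 0.04, and near-identical actin copies can share reads. ACTA2, smooth muscle actin, was at 562, 603, 566 and 549 with number 2 and at 246, 288, 330.4 and 372 with number 3, 1.86-fold lower. ACTA2 shares 516 exon bases (17.3%) with ACTA2-AS1 and 380 with FAS on the other strand.

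NF-kB and secreted cytokine genes moved in both directions, with 8 of 16 higher and 4 lower. These were 50% and 25%, against 16.2% and 15.6% of all genes. IL8 was at 97.6, 90.4, 101 and 105 with number 2 and at 185, 227, 208 and 264 with number 3, and TNFAIP3 at 72.1, 90.1, 82.1 and 83.6 with number 2 and at 245, 206, 180.3 and 203 with number 3. IL1B, the interleukin 1 beta gene, was at 717, 1530.1, 1323 and 1629 with number 2 and at 361, 734, 829 and 894 with number 3 (1.86-fold lower, log2 -0.90 ± 0.07, adjusted p = 6.14e-08). In both numbers the siNeg library was the lowest for IL1B. CXCL3 (1.95) was higher, while CSF2 (-1.12), IL1A (-0.80) and LIF (-0.32) were lower.

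Sterol and lipid genes were lower in number 3. All 19 cholesterol synthesis genes were measured, of which 14 passed as lower and 0 as higher, with a median of -0.32. This and the next count stand against 15.6% lower and 16.2% higher among all genes. HMGCS1, which makes HMG-CoA at the entry to the pathway (chr5:43289395-43313512), was at 2913, 3435, 4946 and 4139 with number 2 and at 1784, 2348, 3471 and 3235 with number 3 (log2 -0.53 ± 0.05, adjusted p = 1.5e-06). It shares 703 exon bases with AC114947.2 on the other strand. The siFOXM1 and siCENPF+siFOXM1 libraries were the highest of each number, so the numbers overlapped, and each pair was lower in number 3. MSMO1, a sterol methyl oxidase, was at 2675, 4019, 5041 and 4405 with number 2 and at 1989, 2613, 3651 and 3439 with number 3, with the same order. FDFT1, squalene synthase, differed by -0.39 ± 0.05, and TM7SF2, a sterol reductase, by -0.62 ± 0.09. Of 16 genes listed for sterol uptake and fatty acid synthesis, a list that also holds the exporter ABCA1, 11 were lower and 1 (ELOVL6, 0.15) higher. Their median was -0.26. SCD, the stearoyl-CoA desaturase, was at 25832, 26078, 31102 and 27214 with number 2 and at 12294, 16178, 19877 and 17472 with number 3 (1.69-fold lower, log2 -0.76 ± 0.06, adjusted p = 8.8e-08). INSIG1, which holds SREBP in the endoplasmic reticulum, was at 2982, 3572, 3917 and 3480.4 with number 2 and at 1528, 2039, 2621 and 2445 with number 3, and ABCA1, which exports cholesterol and is induced by sterols through LXR, at 596, 412, 457 and 433 with number 2 and at 219, 291, 239.9 and 244 with number 3. Number 1 lay below both numbers for SCD, at 7992 to 10499.9, and for INSIG1, at 1089 to 1301.

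The list of genes that respond to withdrawal of glucose or growth factors had 9 of 13 members lower, 2 higher and a median of -0.42. Its members need not all respond in the same direction, so the count gives no direction of such a response. TXNIP, which restrains glucose uptake and binds thioredoxin, was at 1449, 2149, 1901 and 2249 with number 2 and at 749, 1047, 994 and 1247 with number 3 (log2 -0.94 ± 0.05, adjusted p = 3.49e-09). ARRDC3, a related arrestin-domain gene, was at 1374, 1215, 1197 and 1234 with number 2 and at 621, 533, 662 and 551 with number 3. CCNG2, a cyclin that FOXO factors induce in arrested cells, was at 649.9, 616, 651 and 579 with number 2 and at 304, 307, 284 and 339 with number 3, and SESN3, a sestrin, at 422, 321, 374 and 422 with number 2 and at 129.8, 154, 167 and 179 with number 3. None of these 4 overlapped. Hypoxia targets had 11 of 19 lower and 2 higher, with a median of -0.32. VEGFA, the angiogenic growth factor, was at 3875, 3568, 5203 and 4572 with number 2 and at 1759, 2161, 3308 and 3110.0 with number 3, and MXI1, a MYC antagonist, at 409, 460.2, 411 and 401 with number 2 and at 184, 229, 203 and 219.7 with number 3. CA9, carbonic anhydrase 9, had the largest difference of that list (-2.22 ± 0.39), from 23.9 to 40 normalized counts in number 2 to 1.75 to 11.9 in number 3. CA9 met the filter on low values in every number 2 library, where it was high, and lay near or below it in number 3. The size of the CA9 difference is therefore uncertain. Glycolysis genes were divided evenly, 6 higher and 6 lower of 19 (31.6% each, against 16.2% and 15.6% of all genes). HK1, a hexokinase, was at 4337, 3753, 3695 and 3576 with number 2 and at 6169, 5932, 5523 and 5758 with number 3 (log2 0.61 ± 0.05), and HK2, GPI and PFKP were higher by 0.52, 0.41 and 0.30. LDHA (-0.19), PKM (-0.19) and PFKL (-0.30) were lower.

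Extracellular matrix genes were lower in number 3 for 14 of 21 measured members and higher for 1 (FBN2, 0.30), with a median of -0.24. LAMA4, a laminin chain of basement membranes, was at 1672, 1493, 1692 and 1696 with number 2 and at 582, 766, 867 and 749.9 with number 3 (2.23-fold lower, log2 -1.16 ± 0.08, adjusted p = 1.65e-08). COL1A1, the type I collagen chain, was at 383, 432, 695 and 495 with number 2 and at 149, 259, 283 and 282 with number 3, and BGN, which encodes biglycan, at 274, 240.5, 236 and 249 with number 2 and at 126, 127, 114 and 116 with number 3. VCAN, the proteoglycan versican, was at 30605, 26676, 35453 and 34596 with number 2 and at 15892, 20346, 23493 and 23527 with number 3, and FN1, fibronectin, differed by -0.58 ± 0.07. No overlap was seen in the 4 genes given per library. The 7 fibroblast and pericyte markers summed to 39.8 to 45.5 FPKM in number 2 and 41.4 to 47.9 FPKM in number 3, with members that moved in opposite directions. PDGFRB, a PDGF receptor, fell from between 5.53 and 6.87 FPKM to between 2.23 and 3.25, and the pericyte gene RGS5 from between 1.25 and 1.42 FPKM to between 0.44 and 0.46. CSPG4, the NG2 proteoglycan, rose from between 18.97 and 24.5 FPKM to between 24.8 and 29.9. Of the 5 such markers in the fit, 2 passed as lower and 1 as higher, with a median of -0.36, and their part in the matrix result was not tested. TGF-beta and BMP targets were split 5 to 5 of 14 (35.7% each, against 16.2% and 15.6% of all genes). LTBP2, a latent TGF-beta binding protein, was at 696, 791, 926 and 776 with number 2 and at 255, 334, 332 and 345 with number 3, and TGFBI, a matrix protein gene, at 6627, 7467, 8371 and 8281 with number 2 and at 3824, 4975, 5350.1 and 5661 with number 3. ID2, an inhibitor of DNA binding that BMP signals induce, was higher by 0.99.

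Cell junction genes had 3 of 13 higher (23.1%) and 4 lower (30.8%), against 16.2% and 15.6% of all genes. JUP, plakoglobin, was at 1083, 939.6, 1154 and 999 with number 2 and at 645, 595, 731 and 615 with number 3, F11R, junctional adhesion molecule A, differed by -0.89 ± 0.14, and GJA1, connexin 43, by -0.26 ± 0.04. GJA1 was lower with than without the FOXM1 siRNA in each number (6738, 6665, 4346 and 5061 with number 2 and 5267, 5747, 3745 and 4255 with number 3). The keratins KRT7 (-0.99), KRT8 (-0.46) and KRT18 (-0.18) were lower, and VIM (0.16) was higher. Among 31 genes of the primary cilium and Hedgehog signalling, 15 were lower and 2 higher, GLI2 (0.35) among them, with a median of -0.20. In the 2 pairs closest in depth 10 were lower, and in the siNeg and siCENPF pairs 5, against 12.4% and 6.15% of all genes. IFT140, a retrograde transport subunit, was at 350.0, 379.5, 344 and 391 with number 2 and at 201, 215, 250.1 and 231 with number 3 (log2 -0.71 ± 0.09, adjusted p = 1.99e-05). IFT88, IFT74 and IFT57, subunits of anterograde trains, differed by -0.48, -0.42 and -0.36 on the log2 scale. Of 8 Notch and Wnt targets 2 were higher and 1 lower, 25% and 12.5% against 16.2% and 15.6% of all genes. DKK1, a secreted Wnt inhibitor, was at 1489, 1858, 1171 and 1349 with number 2 and at 2533, 2449, 1770.0 and 1768 with number 3, and HES1 was at 195, 191, 159 and 152 with number 2 and at 40.6, 42.7, 86.6 and 69.9 with number 3.

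Lists for translation and respiration had medians nearer 0. The counts in this paragraph are to be read beside the shares of all genes, 16.2% higher and 15.6% lower. Of 28 ribosomal protein genes, 7 passed as lower and 0 as higher, with a median of -0.11, and pseudogene copies make such counts uncertain. In the siFOXM1 and siCENPF+siFOXM1 pairs alone 17 were lower, against 12.4% of all genes. After thinning 12 were lower (17% of all genes), and in the siNeg and siCENPF pairs alone 1 (6.15%). The ribosomal protein median in each pair was 0.10, -0.25, -0.06 and -0.21, so the siNeg pair ran the other way. RPS27 was at 5547, 7395, 6381 and 7594 with number 2 and at 5119.9, 5037, 5063 and 4887 with number 3 (log2 -0.41 ± 0.07), and in number 2 its siNeg library was the lowest. The nuclear respiratory chain had 8 of 23 lower and 1 (SDHA, 0.17) higher (1 lower in the siNeg and siCENPF pairs alone), with COX5B at 1119.6, 1367, 1272 and 1307 with number 2 and at 1000.5, 902, 1026 and 922 with number 3. Mitochondrially encoded mRNAs had 3 of 13 higher and 4 lower. MT-ND3, a complex I subunit, was at 11183, 13163, 11556 and 12139 with number 2 and at 7305, 7570.2, 7952 and 7287 with number 3 (1.59-fold lower, log2 -0.67 ± 0.05), while MT-ND6 was higher by 0.29 ± 0.06. Lysosome and autophagy genes had 5 of 21 higher and 7 lower. CTSD, cathepsin D, which shares 493 exon bases with AC068580.3 on the other strand, was at 12449, 13191, 13269 and 13184 with number 2 and at 7687, 8620.2, 8701 and 8970.0 with number 3, and PSAP, prosaposin, at 25898, 28603, 25762 and 25943 with number 2 and at 17342, 18155, 17879 and 18838 with number 3. All 4 number 3 libraries were below number 2 for both. GABARAPL1, which encodes an autophagosome protein, was at 249, 303, 338 and 357 with number 2 and at 105, 165, 165 and 150.3 with number 3. NPC1, a lysosomal cholesterol exporter, was higher, at 1320.0, 1472, 1778 and 1599 with number 2 and at 1636, 2019.6, 2315 and 2278 with number 3. Clock genes had 2 of 16 higher and 5 lower, among them the output factor TEF (-0.97 ± 0.12). Of 5 metallothioneins and zinc genes 2 were lower and 0 higher (MT1X, -0.32, and MT1M, -0.32). Of 12 snoRNA hosts and nuclear-retained RNAs 3 were higher and 1 lower, with SNHG1 at 1230.4, 1274, 1207 and 1242 with number 2 and at 1470.0, 1441, 1468 and 1581 with number 3.

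**Figure D4:**
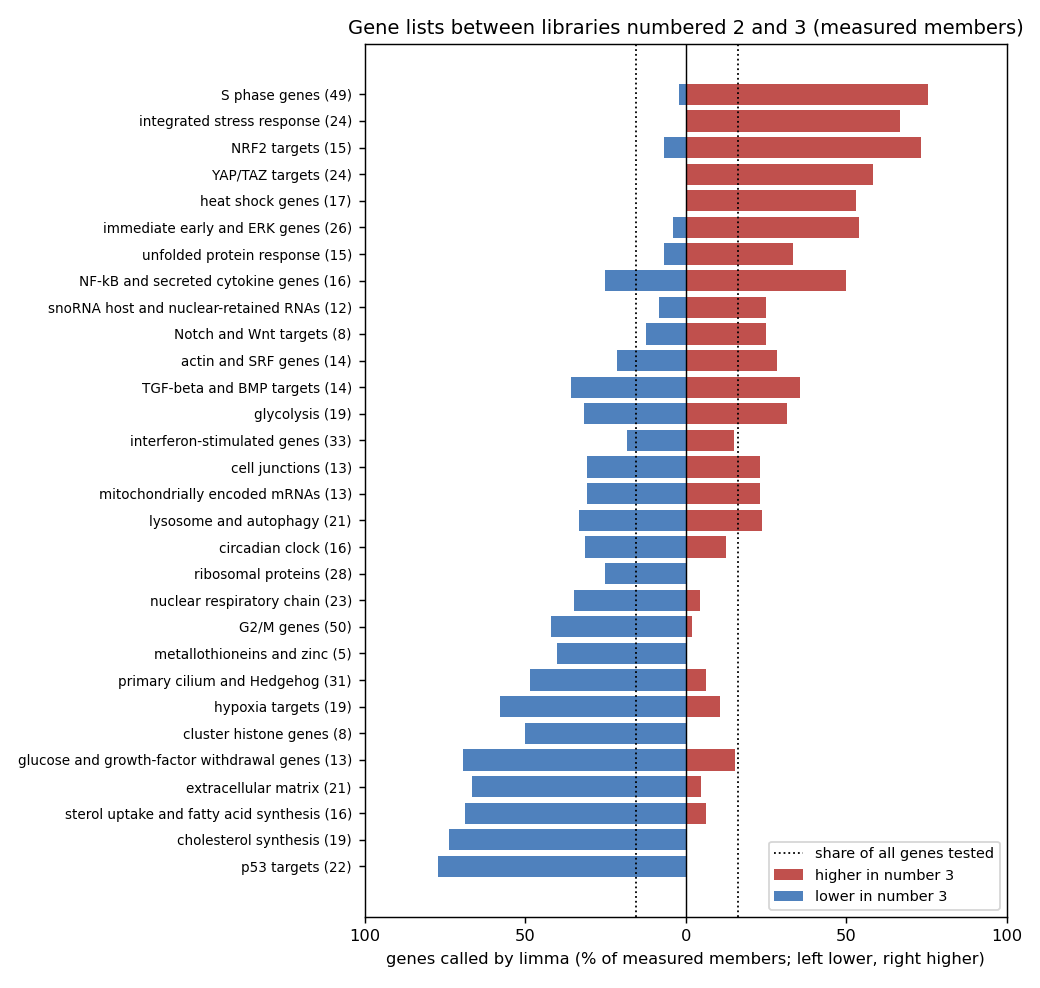
Share of the measured members of each of 30 gene lists that passed the limma test as higher (right) or lower (left) in number 3, with the number of members in brackets. Dotted lines mark the shares among all genes, 16.2% higher and 15.6% lower, and S phase genes (37 of 49 higher) and p53 targets (17 of 22 lower) stand at the ends.

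Interferon-stimulated genes, which the libraries numbered 1 hold at higher levels, had no common direction between numbers 2 and 3. Of 33 measured, 5 were higher and 6 lower, 15.2% and 18.2% against 16.2% and 15.6% of all genes. Their median was 0.00. By edgeR 7 were higher and 4 lower, and in the fit over all 12 libraries 0 were higher and 2 lower. The libraries numbered 1 stood a median of 2.44 log2 units above the mean of numbers 2 and 3. Per pair the median was 0.12 with siNeg, -0.31 with siCENPF, 0.21 with siFOXM1 and -0.24 with both, so the 2 pairs with the CENPF siRNA ran against the other 2. TRIM22, an antiviral ligase, was at 1083, 1162, 1274 and 1258 with number 2 and at 523, 541, 539 and 579 with number 3, 2.18-fold lower without overlap (log2 -1.13 ± 0.06, adjusted p = 2.47e-09). IFIT2, which binds foreign RNA, was at 323, 361, 334 and 347 with number 2 and at 176, 134, 214 and 164 with number 3. STAT2 (-0.39 ± 0.06) and IFIT3 (-0.34 ± 0.06) were lower in all 4 pairs. OAS3 (0.51), USP18 (0.67) and GBP1 (0.33) were higher.

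Whether the difference between numbers depended on the siRNA was tested as an interaction. With against without the CENPF siRNA, 1 of 14834 genes passed (0.00674%), with 1803 at an unadjusted p under 0.05 and 3 genes by edgeR. That gene was IFI6, an interferon-induced mitochondrial protein (chr1:27666061-27672218). IFI6 stood at 113, 128, 98.5 and 146 with number 2 and at 299, 76.2, 283 and 99.9 with number 3. It was higher in number 3 in both pairs without the CENPF siRNA and lower in both pairs with it, with differences of 1.40, -0.74, 1.51 and -0.55. The interaction was -2.10 ± 0.23 on the log2 scale, adjusted p = 0.000672, but in the FPKM table it was -1.81 with adjusted p = 0.222, and 0 genes passed there. The next 4 genes missed the threshold by limma with adjusted p = 0.0840, and of these KMT2D passed by edgeR (adjusted p = 0.0457). IFIT1, an antiviral RNA-binding gene, was at 243, 155, 142 and 211 with number 2 and at 349, 123, 242 and 110.0 with number 3, an interaction of -1.28 ± 0.23. KMT2D, a histone H3 lysine methyltransferase, was at 2678, 1637, 2375 and 2104 with number 2 and at 2602, 2957, 2725 and 3041 with number 3, an interaction of 0.61 ± 0.10, with the siCENPF library of number 2 the lowest. HSPG2, perlecan, and NAV1, a neuron navigator, had interactions of 0.45 ± 0.08 and 0.47 ± 0.09. With reads thinned to equal depth 47 genes passed, IFIT1 and KMT2D among them, each with adjusted p = 0.0226.

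**Figure D5:**
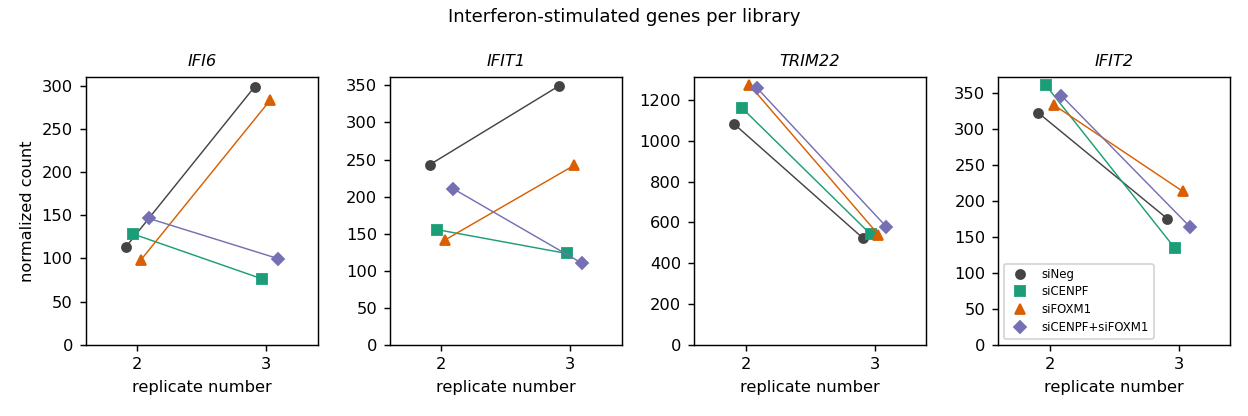
Normalized counts of 4 interferon-stimulated genes in the libraries numbered 2 and 3, with lines joining the pair of each siRNA. IFI6 and IFIT1 are higher in number 3 for siNeg and siFOXM1 and lower for the pairs with the CENPF siRNA, while TRIM22 and IFIT2 are lower in number 3 in all 4 pairs.

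With against without the FOXM1 siRNA, 0 genes passed by limma (0%) and 0 by edgeR, with 319 at an unadjusted p under 0.05. The 5 named genes all had an adjusted p of 1.00. HES1 was lower in number 3 by more without the FOXM1 siRNA (pair differences -2.24, -2.14, -0.87 and -1.11), and PIK3IP1 likewise (-2.17, -1.74, -0.94 and -1.12). GLYCTK, glycerate kinase, which shares 432 exon bases with GLYCTK-AS1 on the other strand, was at 130.1, 154, 147 and 158 with number 2 and at 165, 159, 93.1 and 102 with number 3. FAM126B and ZNF91 had interactions of 0.60 ± 0.18 and -0.64 ± 0.20. A count of 0 does not show that the pairs with and without this siRNA were alike.

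How many genes differed among the siRNAs in these 8 libraries changed with a term for the number. An F test over the 4 siRNA groups without a term for number called 5 genes (0.0337%), and with the replicate number as a block it called 748 (5.04%). All 5 were in both sets: CENPF, FOXM1, TMEM71, ITFG2 and RMND5A. CENPF was at 9537, 827, 7448 and 1360.4 with number 2 and at 7993, 1017, 7723 and 1284 with number 3, and FOXM1 at 4438, 3394, 491 and 816 with number 2 and at 4763, 4258, 816 and 822 with number 3. RMND5A, a subunit of the CTLH ubiquitin ligase, was at 714, 714, 340.5 and 425 with number 2 and at 749, 717, 329.6 and 411 with number 3, and its 4 pair differences of 0.07, 0.01, -0.05 and -0.05 were near 0. TMEM71, a membrane protein gene, was at 353, 288, 53.6 and 134 with number 2 and at 334, 277, 62.8 and 90.6 with number 3. ITFG2, a subunit of the KICSTOR complex, was at 1223, 945, 365 and 437 with number 2 and at 1290.2, 1185, 407 and 335 with number 3, and since it shares 781 exon bases with FOXM1 on the other strand, its level cannot be told apart from that of FOXM1. Of the 748 genes, 423 (56.6%) also passed between the numbers, where 31.9% of all genes did. Both tests use the same residual spread of each gene, so some of this overlap is built in. No conclusion is drawn from it. The same F test over all 12 libraries without a block called 118.

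Transcript length went with the count of calls. Genes were ranked by their longest transcript and cut into 4 bins of about equal size. From the shortest bin to the longest, 9.28%, 14.5%, 18.4% and 23.3% of genes passed as higher in number 3 and 14.1%, 16.3%, 17.7% and 14.7% as lower. The median log2 difference was -0.03, -0.02, 0.01 and 0.04 over the same bins. Pairs were not alike in this: the medians of the shortest and longest bins were 0.05 and -0.04 in the siNeg pair and -0.09 and 0.11 in the siCENPF pair. The part of length in the results was not tested.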

How the data were processed

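Libraries were made from polyA RNA with NEBNext kits, per the labels' protocols. The submitters' processing notes name bcl2fastq, Trimmomatic, TopHat, edgeR and the hg38 build, without versions. The deposited normalized counts are a signal on a count scale, and how the authors scaled them is not given in the sources used. The authors also deposited FPKM values and, in edgeR tables, CPM, of which 100% gave whole reads within 0.01 reads, so depth and reads were recovered for 14556 genes.

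The groups come from the sample titles. Genes with at least 10 normalized counts in 2 of the 8 libraries were kept, and log2(value + 1) was fitted with limma 3.58.1 in R 4.3.3 (trend, robust) on siRNA group plus number, with interaction terms for each siRNA, and two-sided tests were adjusted by Benjamini-Hochberg. The F test over siRNA groups had no block in its main form. Pair differences correlated at 0.419 to 0.489 over genes in all 6 combinations of siRNA groups, so the numbers were taken as pairing the libraries. The scripts were tested on simulated data.

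The gene lists, the rule for naming genes and the comparison itself were chosen with earlier results of these data known. Named genes were CENPF, FOXM1, the 20 higher and 20 lower genes of largest log2 difference with a mean of at least 100 normalized counts and 1 direction in 4 pairs, up to 4 genes of smallest adjusted p per list, and 5 per interaction or F test. Other list members were chosen after their values were seen. Alternatives were other pseudocounts, filters, the FPKM table, edgeR 4.0.16 and DESeq2 1.42.0 on recovered reads, thinned reads, median centring, all 12 libraries, and pairs left out. Intervals and tests cover counting error and the spread of these libraries, not how far replicate series differ in general.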

Additional observations from a re-analysis of the deposited data

Results flagged for a closer look

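Among 193 sets of 4 pair differences, 11 held 1 pair whose gap to the nearest other, over the range, was above Dixon's 95% critical value, where chance gives about 1 in 20. The siFOXM1 pair stood apart for OSGIN1, an NRF2-responsive gene (0.30 on the log2 scale, lower than the others), SPP1 (1.82, higher), ARRDC3 (-0.85, closest to 0) and IFT140 (-0.46, closest to 0). The siCENPF pair stood apart for HK2 (0.80, higher), DUSP1 (0.54, lower), HSP90AB1 (0.23, lower), DTL (0.57, higher) and IFT74 (-0.57, farthest from 0). The siNeg pair stood apart for FOXS1, a forkhead gene (-1.97), and SCD (-1.07), each farthest from 0. In all 11 the 4 pairs had the same sign.

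The difference between numbers was tested for dependence on the siRNA, and IFI6 was the gene that passed, with a log2 interaction with the CENPF siRNA of -2.10 and an adjusted p of 0.000672 by limma. Its value was -2.11 by edgeR and -1.93 in thinned reads, both past the threshold, and -1.81 in FPKM, which missed it.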

How the results depend on the processing

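Between numbers 2 and 3, the 4727 calls became 2783 in the FPKM table (1291 higher, 1492 lower) and 1774 in the siNeg and siCENPF pairs alone (861 higher, 913 lower). Leaving out 1 siRNA pair at a time gave 3196 to 5085 (1636 to 2594 higher, 1560 to 2491 lower). DESeq2 gave 3537, the fit without a siRNA term 3356, edgeR 4721 and all 12 libraries 4986, and in each of 17 alternatives 0 genes were called in the opposite direction. Of 148 named genes called, 105 passed in all 17 alternatives, 43 missed the threshold in some and 0 reversed, and 1 of the 40 genes with the largest differences missed it in some. MT2A, which was not called (-0.03), was at -0.0676 to 0.0234 when 1 pair was left out, the latter without the siCENPF pair, and at 0.0024 in the siFOXM1 and siCENPF+siFOXM1 pairs alone. CENPF, also not called (0.0031), was at -0.00065 by DESeq2, -0.0199 in FPKM, -0.0135 by edgeR, -0.0155 in the siFOXM1 and siCENPF+siFOXM1 pairs, -0.0122 in thinned reads and -0.0952 to 0.0890 when 1 pair was left out, the former without the siCENPF pair. FOXM1 (0.29) missed the threshold by DESeq2, in FPKM, over all 12 libraries, without a siRNA term, without the siFOXM1 pair and in the siNeg and siCENPF pairs. Medians of 25 of 30 lists kept their sign in every alternative, the others being glycolysis, TGF-beta and BMP targets, interferon-stimulated genes, Notch and Wnt targets, and lysosome and autophagy. The interaction with the CENPF siRNA had 0 calls in FPKM, 3 by edgeR and 47 in thinned reads. The F test over siRNA groups had 5 calls, 1 in FPKM, 118 over all 12 libraries and 748 with the replicate block, which was the pairing by number. The cause of these shifts was not tested. Depth limits genes near 10 normalized counts, where 1 read is a large share of the value.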
